A study of Drosophila melanogaster with 2 samples.

Results

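MicroRNA genes are short genes whose transcripts fold into hairpins, from which a small RNA of fixed sequence is cut. Their hairpins were set against the genomic sites of Clock (Clk), a transcription factor of the circadian clock, as mapped by chromatin immunoprecipitation and sequencing (ChIP-seq). The members were all genes on the main chromosome arms of Drosophila melanogaster that Ensembl annotates as microRNA precursors or names as such, 260 of 18164 annotated genes with transposable elements left out. The hairpins were 50 to 174 bp long, with a median of 92.0 bp. Same-strand hairpins less than 10 kb apart were joined into 203 clusters. Of these, 22 held more than 1 hairpin and together held 79 of the 260 hairpins, and the largest, from mir-972 to mir-979 on the X chromosome, held 12.

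The study had 1 group, whole adult male flies with a transgene that makes Clk with enhanced green fluorescent protein at its C-terminal end (Clk-eGFP), with 2 biological replicates. The protein was precipitated through the tag according to the sample description, although another label gives Clk as the antibody's target, and the chromatin was sonicated to a size range of 200 to 800 bp. The labels give neither the age of the flies nor the time of day of collection, nor the state of the flies' own Clk gene, and the tissues of the whole fly were not separated. There was no second condition, so the comparisons are between microRNA genes and other genes or positions of the same genome, and between the replicates. The authors deposited 30000 candidate regions for each replicate and for the replicates pooled, and a list of 2464 peaks that met their cutoff on the irreproducible discovery rate, called reproducible peaks here. Each region has a summit (its highest point) and the authors' signal value, on a scale of its own in each list. The pooled signal of the reproducible peaks ran from 72.4 to 1874 with a median of 109, and rank 1 is the strongest. Read depth was unknown, since regions and signal values but no read counts were used. All positions are on build dm6.

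Clk, of the basic helix-loop-helix family, binds DNA as a pair with Cycle, at E-boxes (CACGTG in the strict form, CANNTG in the general form), and drives the daily transcription of period and timeless. A microRNA is first made as a long primary transcript by RNA polymerase II, either from its own promoter or as part of a host gene in whose intron or exon it lies. Drosha and Dicer-1 then cut the hairpin and the mature strand, and an Argonaute protein carries that strand to messenger RNAs that pair with its seed, bases 2 to 8. In flies, microRNAs such as bantam, mir-276a, mir-279, mir-92a and the let-7 cluster are known to act on clock genes, clock neurons or daily activity. A promoter can lie kilobases from the hairpin it serves, so summits were looked for both within 1 kb of the hairpin and within 1 kb of the starts of the gene that contains it.

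The mature strands below belong to some of the microRNAs on which the results turn, with the seed in capitals; those of mir-8, mir-14 and mir-308 are not printed. The sequences were read from the RefSeq Release 6 genome and annotation. The first group have a reproducible peak at a start of the noncoding transcript that holds the hairpin, and mir-279 and mir-996 share their seed. That seed is also the one of mir-286, which is not printed. mir-286 had no reproducible summit within 1 kb of its hairpin or of its transcript's start.
mir-279-3p: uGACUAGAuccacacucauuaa
mir-996-3p: uGACUAGAuuucaugcucgucu
let-7-5p: uGAGGUAGuagguuguauagu
mir-100-5p: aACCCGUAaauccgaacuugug
mir-125-5p: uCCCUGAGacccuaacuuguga
mir-276a-3p: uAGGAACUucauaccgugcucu
bantam-3p: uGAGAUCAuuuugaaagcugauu
mir-282-5p: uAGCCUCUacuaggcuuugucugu
mir-1000-5p: aUAUUGUCcugucacagcagu
The second group have a reproducible summit within 1 kb of the hairpin that is not at such a start, and mir-275 also has a peak at its transcript's start.
mir-92a-3p: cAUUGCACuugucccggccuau
mir-277-3p: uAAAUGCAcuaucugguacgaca
mir-34-5p: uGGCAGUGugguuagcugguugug
mir-275-3p: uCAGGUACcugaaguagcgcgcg
mir-305-5p: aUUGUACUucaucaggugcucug
mir-274-3p: cUCGUUUUugcgaucacaaauua
The third pair are relatives with the seed of a microRNA above and no reproducible summit within 1 kb of their own hairpin.
mir-276b-3p: uAGGAACUuaauaccgugcucu
mir-92b-3p: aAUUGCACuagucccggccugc

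The genomic DNA under the summits is printed for 8 of the peaks described below, chosen to show named primary transcripts and the strongest hairpin peaks and leaving out those of mir-8 and mir-14. Each window is 101 bp centred on the summit, plus strand, with each CANNTG in capitals. A label with the word start means that the summit lies within 1 kb of a start of that transcript. The summits of these windows were 121 to 519 bp from that start, so the windows do not hold the start itself. The sequences come from the RefSeq Release 6 assembly. Of these 8 windows, 3 held no match to the general form. The strict form was in none of them, but it was in the mir-8 window, which is not printed. CANNTG equals its own reverse complement as a pattern, so a match on one strand is a match on both.
mir-279 and mir-996 start, rank 22, chr3R:29214391-29214491: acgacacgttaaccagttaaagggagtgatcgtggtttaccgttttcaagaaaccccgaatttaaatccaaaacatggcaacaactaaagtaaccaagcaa
let-7 cluster start, rank 132, chr2L:18456186-18456286: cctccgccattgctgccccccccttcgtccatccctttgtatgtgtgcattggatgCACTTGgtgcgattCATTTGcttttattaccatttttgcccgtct
mir-276a start, rank 173, chr3L:10332203-10332303: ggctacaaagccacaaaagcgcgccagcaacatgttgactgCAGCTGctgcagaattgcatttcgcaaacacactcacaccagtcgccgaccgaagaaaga
mir-276a inner start, rank 249, chr3L:10363795-10363895: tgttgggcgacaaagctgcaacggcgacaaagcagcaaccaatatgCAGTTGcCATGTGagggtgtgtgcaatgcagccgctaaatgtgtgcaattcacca
mir-282 start, rank 320, chr3L:3250148-3250248: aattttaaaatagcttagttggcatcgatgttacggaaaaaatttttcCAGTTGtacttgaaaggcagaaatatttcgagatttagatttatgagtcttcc
mir-92a, rank 357, chr3R:25647066-25647166: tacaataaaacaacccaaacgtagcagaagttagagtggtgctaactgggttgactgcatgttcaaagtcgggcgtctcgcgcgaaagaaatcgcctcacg
bantam start, rank 1328, chr3L:628206-628306: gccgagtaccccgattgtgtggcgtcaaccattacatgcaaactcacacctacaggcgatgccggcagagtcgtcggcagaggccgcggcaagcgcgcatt
mir-1000 start, rank 2178, chr3R:25589320-25589420: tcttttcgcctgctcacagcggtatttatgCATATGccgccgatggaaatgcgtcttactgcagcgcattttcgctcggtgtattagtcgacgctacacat

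Few microRNA hairpins had a reproducible Clk-eGFP summit nearby. A summit lay within 1 kb of 17 of the 260 hairpins, or 6.54% with an exact binomial (Clopper-Pearson) 95% interval of 3.85 to 10.3%, and 17 distinct peaks were involved. By the same distance 14.6% of 13945 protein-coding genes had a summit at their 5′ end, and 3.31% of all positions on the arms had one. Among other small noncoding RNA genes the share was 11.2% for the 269 snoRNA genes and 4.83% for the 290 tRNA genes. With clusters counted once, 15 of 203 or 7.39% had a summit (4.19 to 11.9%), and 3 of the 22 clusters with more than 1 hairpin did. These intervals cover counting error over genes only, and the differences between the shares were not tested.

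With pooled candidates, which include the reproducible peaks and weaker regions, the hairpin share again fell between those of protein-coding 5′ ends and positions. A pooled candidate lay within 1 kb of 110 hairpins (42.3%), against 58.4% of protein-coding 5′ ends and 31.6% of arm positions. Candidates of both replicates lay within 1 kb of 77 hairpins (29.6%), against 44.8% of protein-coding 5′ ends. Replicate 1 had one at 104 hairpins and replicate 2 at 125, each count including those 77, and 106 hairpins had none in any list. Taking only the strongest 2464 regions of each replicate, 15 hairpins (5.77%) had a summit within 1 kb in replicate 1, against 14.5% of protein-coding 5′ ends, and 14 (5.38%) in replicate 2, against 14.1%. Of the 17 hairpins with a reproducible summit, 11 also had one of the strongest 2464 summits in both replicates.

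The median hairpin lay 21228.5 bp from the nearest reproducible summit. For protein-coding 5′ ends the median was 14407 bp, for tRNA genes 18287 bp, for snoRNA genes 5304 bp and for positions every 1 kb along the arms 36334 bp. Widening the distance to 5 kb took in 54 hairpins, 20.8% against 29.0% of protein-coding 5′ ends and 13.4% of positions. Within 10 kb the share was 34.2% of hairpins, which left 171 with no summit. It was 42.1% of protein-coding 5′ ends, 58.0% of snoRNA genes, 25.5% of tRNA genes and 22.7% of positions.

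**Figure D1:**
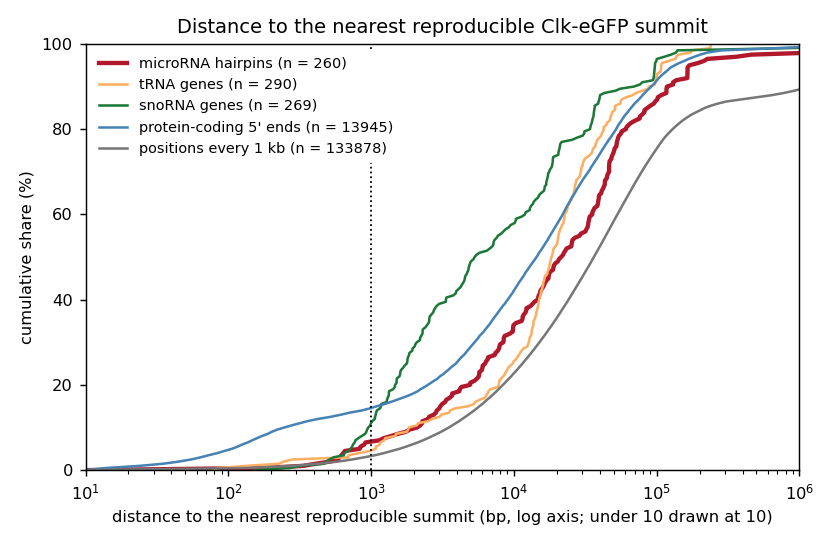
Cumulative share (%, vertical axis) of microRNA hairpins, tRNA genes, snoRNA genes, protein-coding 5′ ends and positions every 1 kb against the distance to the nearest reproducible summit in bp (log axis), measured from the whole gene for the small RNAs; the dotted line marks 1 kb. At 1 kb the hairpin curve stands at 6.54%, between the positions at 3.31% and the protein-coding 5′ ends at 14.6%.

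The 17 hairpins were spread over the arms. They numbered 3 of 56 on 2L, 5 of 55 on 2R, 2 of 31 on 3L, 5 of 58 on 3R, 2 of 58 on X and 0 of 2 on chromosome 4. By genomic context, 14 of the 182 hairpins inside a gene of the same strand had a summit (7.69%), 1 of the 27 inside a gene of the opposite strand only (3.70%), and 2 of the 51 between genes (3.92%). Hairpins within 1 kb of another gene's start had a summit in 11 of 91 cases (12.1%, interval 6.19 to 20.6%), and the others in 6 of 169 (3.55%, 1.31 to 7.57%). The peaks themselves were at other genes' starts as often as the list as a whole: 11 of 17 lay within 500 bp of one (64.7%), against 64.1% of all 2464 peaks. Of the 17 peaks, 11 were upstream of a hairpin and 1 had its summit inside one.

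The peaks at hairpins were mostly in the weaker part of the reproducible list. Their pooled signal ran from 76.7 to 223 with a median of 98.0 and a median rank of 1484, and 6 of the 17 were stronger than the median peak of the list. Both replicates had a candidate summit within 150 bp at 16 of the 17. In replicate 1 the matched regions ranked from 314 to 3498 with a median of 1330, and 14 were among the strongest 2464. In replicate 2 they ranked from 301 to 17677 with a median of 2137.5, and 9 were among the strongest 2464. Over the 61 regions within 1 kb of a hairpin that could be paired between replicates, Spearman's rho of the signals was 0.498, against 0.632 over all 10636 paired regions.

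**Figure D2:**
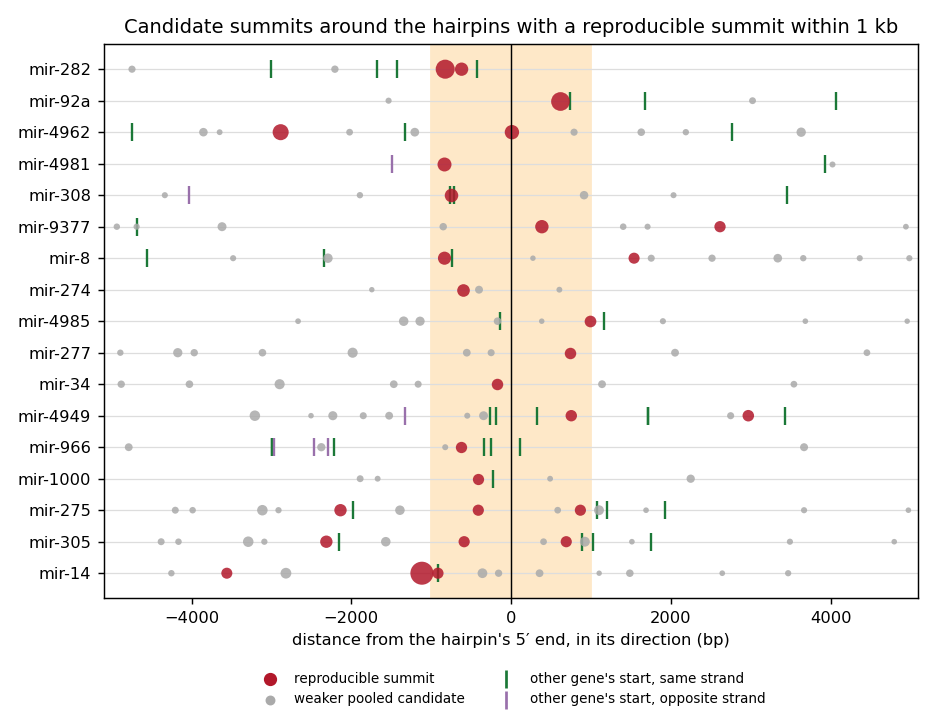
Summits of pooled candidate regions around each of the 17 hairpins, by distance in bp from the hairpin's 5′ end in its own direction, with red for reproducible peaks, grey for other candidates, area growing with pooled signal, and ticks for other genes' starts (green same strand, purple opposite). The shaded band marks 1 kb to each side, and the largest red dot within it belongs to mir-282; the larger dot just outside it at mir-14 is the rank 142 peak.

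The strongest of these peaks belonged to mir-282 and mir-92a. The mir-282 hairpin (3L, 3251022 to 3251118) lies in an exon of the noncoding RNA lncRNA:CR43626. Its first peak, summit 824 bp upstream of the hairpin and 396 bp from a start of that RNA, had a pooled signal of 223 (rank 320), with 146 in replicate 1 (rank 314) and 84.6 in replicate 2 (rank 308). A second summit 619 bp upstream had a signal of 109 (rank 1236), matched in replicate 1 by the same region and in replicate 2 by a region of its own with signal 60.4 (rank 578).

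The mir-92a hairpin (3R, 25646506 to 25646600) lies in an intron of jigr1, and mir-92a is known to act on the excitability of clock neurons. Its peak, 516 bp downstream of the hairpin and 130 bp from a jigr1 start that lies past the hairpin, had a pooled signal of 215 (rank 357), 129 in replicate 1 (rank 408) and 85.3 in replicate 2 (rank 301). The seed of mir-92a is shared by mir-92b, mir-310, mir-311, mir-312 and mir-313. Of these 5 relatives, 0 had a reproducible summit within 1 kb of the hairpin, beside 6.54% of all members. Within 1 kb of the mir-92b hairpin, in the same cluster, there was only a pooled candidate of rank 27561. The jigr1 start with the rank 357 peak lies upstream of the mir-92b hairpin, however, and was counted as a host start for both. The mir-92b hairpin also lies in an exon of lncRNA:CR45917, which RefSeq names as its primary transcript. The start of lncRNA:CR45917 had neither a reproducible summit nor a pooled candidate within 1 kb.

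For mir-4962 (X, 3777382 to 3777505, intron of Tlk) the summit fell inside the hairpin, with a pooled signal of 127 (rank 955), 84.1 in replicate 1 (rank 905) and 39.9 in replicate 2 (rank 1379). The nearest start, also of Tlk, was 1334 bp away. For mir-9377, in an intron of Tis11, the summit lay 335 bp downstream and 5069 bp from the nearest start, with 110 pooled (rank 1210), 91.0 in replicate 1 (rank 811) and 16.7 in replicate 2 (rank 7320). Replicate 2 placed it far lower than replicate 1. For mir-274, which is antisense within an intron of CG32085, the summit was 601 bp upstream and 7561 bp from the nearest start, with 98.0 pooled (rank 1484), 67.2 in replicate 1 (rank 1330) and 31.2 in replicate 2 (rank 2192). The peaks of mir-274, mir-9377 and the mir-277 and mir-34 pair were the farthest from any start among the 17.

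The mir-277 and mir-34 hairpins share the primary transcript lncRNA:CR43459, and in flies mir-34 is known for its part in ageing and mir-277 for control of branched-chain amino acid breakdown. One peak lay between them, 639 bp downstream of mir-277 and 176 bp upstream of mir-34, inside an exon and 6999 bp from the transcript's start. Its pooled signal was 81.0 (rank 2049), with 53.4 in replicate 1 (rank 2015) and 24.4 in replicate 2 (rank 3479). The transcript's start itself had no reproducible summit within 1 kb, and its best pooled candidate ranked 14371.

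The mir-275 and mir-305 hairpins, with mir-275 in an exon of lncRNA:CR43857, had peaks on both sides. The upstream peak, 410 bp before mir-275, had 77.2 pooled (rank 2213), 67.1 in replicate 1 (rank 1334) and 11.2 in replicate 2 (rank 17036). The downstream peak, 619 bp after mir-305 and 203 bp from the start of the gene muc, had 76.7 pooled (rank 2245), 43.7 in replicate 1 (rank 2769) and 32.1 in replicate 2 (rank 2083). The peak at the start of lncRNA:CR43857, 160 bp upstream of it, was stronger, with 93.8 pooled (rank 1609), 59.9 in replicate 1 (rank 1643) and 31.2 in replicate 2 (rank 2193).

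For mir-8, mir-1000 and mir-14 the summit near the hairpin was at a start of the microRNA's own transcript. The mir-8 peak, near a microRNA known for growth control in the fat body, was 90 bp from the inner of the 2 starts of lncRNA:CR43650. It lay 833 bp upstream of the hairpin, with 106 pooled (rank 1281), 72.5 in replicate 1 (rank 1179) and 18.1 in replicate 2 (rank 6198). For mir-1000, known for limiting glutamate release at synapses, it was 191 bp upstream of the start of lncRNA:CR45910, with 77.8 pooled (rank 2178), 53.0 in replicate 1 (rank 2047) and 19.1 in replicate 2 (rank 5562). For mir-14, known in fat metabolism and cell survival, it was 3 bp from the start of lncRNA:CR43651, with 76.8 pooled (rank 2233), 86.1 in replicate 1 (rank 867) and no candidate within 150 bp in replicate 2. All of these were ranked lower in replicate 2 than in replicate 1, or not matched there.

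The other peaks at hairpins lay at or near protein-coding promoters. The peak of mir-308 was 6 bp from a start of RpS23, the ribosomal protein gene whose intron holds the hairpin, with 112 pooled (rank 1185), 66.6 in replicate 1 (rank 1359) and 39.9 in replicate 2 (rank 1380). The seed of mir-308 is shared by 13 other genes of the mir-2, mir-6, mir-11 and mir-13 family. Of these, 0 had a reproducible summit within 1 kb of the hairpin, beside 6.54% of all members. At a host start upstream of the hairpin, mir-2a-1, mir-2a-2, mir-2b-1, mir-2b-2 and mir-11 had one, beside 25.3% of the 182 hairpins inside same-strand genes. Of these, mir-2a-1, mir-2a-2 and mir-2b-2 share their host spi and its peaks, the strongest at rank 1468. The peak of mir-4985 was 174 bp from a start of Fatp3, with 84.0 pooled, 41.1 in replicate 1 (rank 3069) and 41.3 in replicate 2 (rank 1294). Those of mir-966 (284 bp from a start of Pfas, 78.5 pooled), mir-4949 (433 bp from a start of ATPsynC, 80.1 pooled) and mir-4981 (650 bp from a start of CG14762, 120 pooled) had replicate 1 signals of 51.1, 38.0 and 79.5 and replicate 2 signals of 16.1, 11.0 and 40.6. The region at mir-4949 was the lowest ranked of the matched regions in both replicates, at 3498 and 17677.

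The distance of 1 kb parted close cases. Just inside it were mir-14 at 915 bp, mir-4985 at 894 bp and mir-4981 at 844 bp. Just outside were mir-4978 at 1014 bp (rank 1943, signal 83.9), mir-279 at 1144 bp (rank 22, 657), mir-967 at 1228 bp (rank 2351, 74.5) and mir-276a at 1383 bp (rank 249, 246). Those at mir-279 and mir-276a were stronger than every peak within 1 kb of a hairpin, and both were at starts of primary transcripts.

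At the starts of the noncoding transcripts that hold hairpins, several peaks were among the strongest of the list. RefSeq names 24 of the noncoding hosts as primary microRNA transcripts, and 7 of them (29.2%, interval 12.6 to 51.1%) had a start with a reproducible summit no more than 1 kb away. Of all 37 noncoding hosts 10 had one (27.0%, 13.8 to 44.1%), against 5.96% of 3001 noncoding genes other than microRNA genes and 16.1% of protein-coding genes by the same measure. These shares were not matched for the number of annotated starts, and the differences were not tested. The 7 named primary transcripts serve 10 of the 38 hairpins that have one.

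The peak of mir-279 and mir-996 was the strongest at any microRNA transcript. Its summit, 121 bp upstream of the start of lncRNA:CR31044 (3R, 29214562 to 29219667), had a pooled signal of 657, rank 22 of the 2464, with 453 in replicate 1 (rank 16) and 205 in replicate 2 (rank 37). mir-279 is known in flies for its action on daily rest and activity through the JAK/STAT pathway. The peak of the let-7 cluster, whose 3 microRNAs time development and are made from lncRNA:let7C (2L, 18455717 to 18473132), lay 519 bp inside that transcript and had 335 pooled (rank 132), 199 in replicate 1 (rank 153) and 135 in replicate 2 (rank 111). Neither mir-100, let-7 nor mir-125 had a pooled candidate within 1 kb of its hairpin.

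mir-276a, known to act on timeless, had peaks at more than 1 start of lncRNA:CR46006 (3L, 10323501 to 10367450). The outer peak, 208 bp upstream of an annotated start, had 288 pooled (rank 173), 145 in replicate 1 (rank 325) and 139 in replicate 2 (rank 97). The inner peak, 174 bp upstream of another start and 1383 bp from the hairpin, had 246 pooled (rank 249), 155 in replicate 1 (rank 270) and 89.1 in replicate 2 (rank 286). Its relative mir-276b, in lncRNA:CR46004, had no reproducible summit at a start of that transcript, where the best pooled candidate had rank 22457. RefSeq names lncRNA:CR46006 as the primary transcript of both mir-276a and mir-276b, but the mir-276b hairpin lies upstream of its extent in the Ensembl annotation, so these peaks were not counted for mir-276b.

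The start of the mir-14 transcript had a second and stronger peak 198 bp upstream, with 325 pooled (rank 142), 193 in replicate 1 (rank 164) and 137 in replicate 2 (rank 103). The bantam transcript lncRNA:CR43334, whose microRNA blocks the cell death gene hid and acts on Clk itself, had one 179 bp upstream of a start, with 104 pooled (rank 1328), 67.0 in replicate 1 (rank 1340) and 39.7 in replicate 2 (rank 1389). The heat shock RNA lncRNA:Hsromega, host of mir-4951, had 3 peaks within 1 kb of a start, of ranks 922, 961 and 2396. The peaks of mir-279 and mir-996, the let-7 cluster, mir-14 at rank 142, mir-276a and mir-282 at rank 320 each ranked 325 or better in both replicates.

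**Figure D3:**
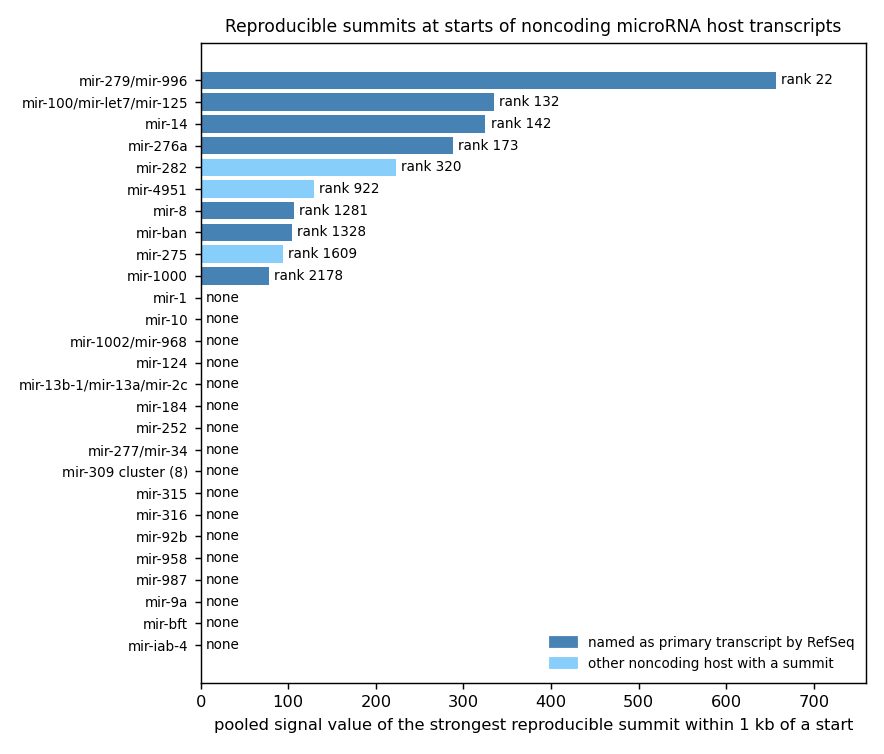
Pooled signal value (bars, from 0) and rank of the strongest reproducible summit within 1 kb of a start, for noncoding transcripts that hold microRNA hairpins, named by their hairpins; dark bars are transcripts that RefSeq names as primary transcripts, light bars other noncoding hosts with a summit. The mir-279 and mir-996 transcript stands at 657 and the next 3 at 335, 325 and 288, while 17 named primary transcripts had no such summit.

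The remaining 17 named primary transcripts had none at a start by this distance. They included those of mir-1, known from muscle, mir-9a, known from sense organ precursors, mir-124, known from neurons, mir-10, mir-184, mir-252, mir-315 and the embryonic mir-309 cluster. The highest pooled candidate at any of them had rank 3057 and signal 63.1 and lay at the start of the mir-263a transcript (annotated as mir-bft), known for protecting sense organ bristles.

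**Figure D4:**
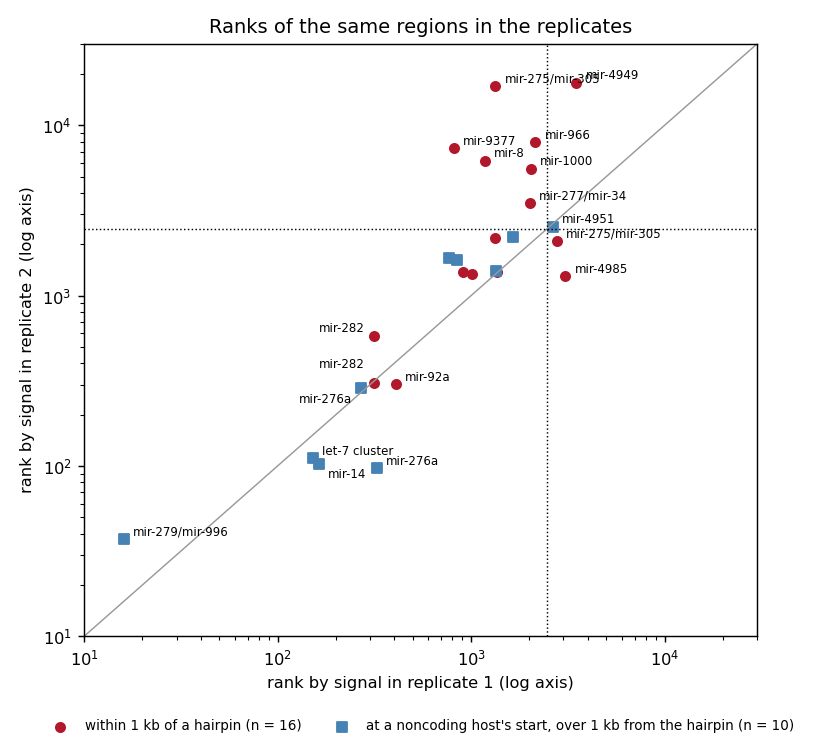
Rank by signal in replicate 1 (horizontal) and replicate 2 (vertical), both log axes, of peaks within 1 kb of a hairpin (red circles) and of peaks at a noncoding host's start more than 1 kb from the hairpin (blue squares) that were matched within 150 bp in both replicates; dotted lines mark rank 2464 and the diagonal equal ranks. The mir-279 and mir-996 peak, at ranks 16 and 37, stands nearest the strong end in both, and the mir-4949 peak, at 3498 and 17677, nearest the weak end.

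Hairpins inside genes of their own strand numbered 182, in 165 distinct hosts. A reproducible summit lay within 1 kb of a host's start for 52 of the 182 (28.6%, interval 22.1 to 35.7%) and at 46 of the 165 hosts (27.9%), against 16.1% of all protein-coding genes. With only starts upstream of the hairpin counted, the 52 became 46 (25.3%, 19.1 to 32.2%). The 6 others, whose summits were only at starts past the hairpin, were mir-92a, mir-281-1, mir-281-2, mir-4972, mir-4985 and mir-9384. Protein-coding hosts had a summit at any start in 36 of 128 cases (28.1%). These hosts had more annotated starts, with a median of 2.00 against 1.00 for all protein-coding genes, and were longer, with a median of 14094.5 against 2166 bp. Among genes with 1 start the shares were 12.5% of 56 hosts and 11.9% of all 10246 such genes. With 2 to 3 starts they were 32.7% of 52 hosts and 25.7% of 3259 genes, and with 4 or more 60.0% of 20 hosts and 43.9% of 440 genes. The part of gene length in the share was not tested.

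The strongest peaks at protein-coding hosts were at MRP (mir-9382, rank 158, signal 299), a membrane transporter gene, and Btk (mir-2b-1, rank 247, signal 247), a tyrosine kinase gene. E2f1, the cell cycle factor whose intron holds mir-11 and mir-998, had one at rank 557 (signal 167). SREBP, the lipid synthesis regulator whose intron holds mir-33, had one at rank 768 (signal 142). Both have a known tie to their microRNA, but such hosts were not counted as a class. HnRNP-K (mir-7), grp (mir-9b and mir-9c) and Gmap (mir-12) had no reproducible summit at a start. spi, the epidermal growth factor receptor ligand that holds mir-2a-1, mir-2a-2 and mir-2b-2, had one at rank 1468 (98.9), and for, the cyclic GMP-dependent kinase gene that holds mir-4972, at rank 483 (183). At MRP, Btk, E2f1, SREBP and spi the start with the peak lies upstream of the hairpin, and whether the microRNA is made from it was not measured. At for the start with the peak lies past the mir-4972 hairpin, so a transcript from that start does not hold it. In all, 58 of the 260 microRNA genes (22.3%) had a summit at the hairpin or at a host's start. Of the 11 with both, 9 had a peak that counted in both places.

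The strict E-box was found at few of these peaks. CACGTG lay within 50 bp of the summit at 1 of the 17 peaks near hairpins, that of mir-8, or 5.88% (interval 0.149 to 28.7%), against 1.34% of all 2464 peaks. Within 150 bp it was found at 3 (17.6%, 3.80 to 43.4%), those of mir-4962, mir-8 and mir-966, against 4.67% of all peaks. CANNTG lay within 50 bp of 9 of the 17 (52.9%, 27.8 to 77.0%), against 38.5% of all peaks, and of 31 of the 57 peaks at host starts (54.4%). Of those 57, which include the mir-8 peak, 2 had CACGTG within 50 bp and 4 within 150 bp. The mean GC content of the 101 bp at the summit was 44.1% for the 17 peaks and 38.7% for all peaks, and its part in the motif shares was not tested. A motif match is a description of the letters in the window and not a measured binding site.

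A list of 30 microRNA genes with a known role in the clock, sleep or daily output was read in the same way. Of these, 5 had a reproducible summit within 1 kb, namely mir-8, mir-14, mir-34, mir-92a and mir-277, which is 16.7% (interval 5.64 to 34.7%) beside 6.54% for all members. A pooled candidate was near 14 of the 30, or 46.7% beside 42.3%. Of the 22 list members inside a same-strand gene, 12 (54.5%, 32.2 to 75.6%) had a summit at a start of that gene, beside 28.6% of all such hairpins, and with starts upstream of the hairpin only it was 11. Among them mir-92b was counted through jigr1 and not through its named primary transcript. The list was chosen with earlier results of these data known, members of a cluster share a start, and the difference was not tested.

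Several list members had no reproducible summit within 1 kb of the hairpin. Of those named here, mir-279, mir-996 and mir-ban had one at a start of their transcript, as given above. The 6 hairpins from mir-959 to mir-964, a cluster known for daily cycling in the fly head, had no candidate within 1 kb in the pooled list, and their nearest reproducible summits were 116804 to 117966 bp away. mir-124, mir-1, mir-210, mir-263b, mir-263a, mir-276b and mir-996 also had no pooled candidate within 1 kb of the hairpin. At mir-375, mir-9a, mir-ban and mir-279 the best pooled candidate within 1 kb was weak, with ranks of 9387, 10789, 13915 and 14596 and signals of 32.5, 30.2, 26.5 and 25.9.

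Outside the reproducible list, 34 of the 260 members had a pooled candidate within 1 kb that was matched within 150 bp in each replicate. The same count was not made for other genes or for positions, so it describes these members only. The highest was at mir-9388, 222 bp from a start of Mes2, with a pooled signal of 64.9 (rank 2924) and replicate ranks of 3435 and 2645. Next came mir-9378 (rank 3010, signal 63.6, intron of CG17124), mir-4956 (3234, 60.9, intron of Sxl) and mir-2b-2 (3340, 59.8, intron of spi). mir-4912, mir-281-1 with mir-281-2, mir-3645, mir-1005 and mir-4957 followed, with signals between 51.1 and 55.7. The candidate at mir-3645, 27 bp from a start of Pop1, had a CACGTG within 50 bp of its summit.

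The genes that make microRNAs and carry out their action were a list of 17. At 7 of them a start had a reproducible summit within 1 kb, 41.2% (interval 18.4 to 67.1%) beside 16.1% of all protein-coding genes. The strongest was at AGO1, the Argonaute that carries microRNAs, with rank 341 and signal 218, followed by r2d2, a Dicer-2 partner (674, 152), gw, the silencing partner of AGO1 (724, 145), and Pop2, a deadenylase subunit (788, 140). AGO2, the Argonaute of RNA interference, Not1, the scaffold of the deadenylase, and Ranbp21, an exportin, had ranks of 1151, 1688 and 2367. None was found at the cutting enzymes drosha, Dcr-1 and Dcr-2, nor at pasha, loqs, Hen1, me31B, Nbr, Tailor or twin. The 7 genes with a summit had 2 or 3 annotated starts each, and the 6 list members with 1 start had none.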

How the data were processed

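ChIP-seq for Clk-eGFP was analysed in 2 biological replicates of 1 group. The region lists are in narrowPeak form with a signal value per region and a −log10 q-value, both deposited by the authors; signal was used to rank and describe regions within a list, and the −log10 q-value was not used for ranking. The sources used here do not give the aligner, the peak caller or the cutoff, and the dm3 lists, signal tracks and control data were not used. The reproducible peaks were the same regions as ranks 1 to 2464 of the pooled candidates.

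Genes and starts came from Ensembl release 115 (BDGP6.54) and sequences from RefSeq Release 6, both on the same assembly as dm6. A summit counted within 1 kb of a hairpin or start, and 150 bp matched regions between replicates. Signals of the replicates are on different scales and were not averaged, and no model was fitted. Intervals are exact binomial at 95%. The members, the lists of 30 clock microRNAs and 17 making genes were chosen with earlier results of these data known. Named genes were the 17 with a reproducible summit, both lists, up to 10 further candidates matched in both replicates, and their hosts; primary transcripts and other hosts were named after their values were seen. The search within 1 kb and the distance to the nearest summit were tested on simulated data, and the 150 bp match was not. Alternatives changed the distance, list strength, replicates, overlap rule, clusters and motif window. Python 3.11.15, NumPy 2.4.6, SciPy 1.17.1 and matplotlib 3.10.9 were used.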

Additional observations from a re-analysis of the deposited data

How the results depend on the processing

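The number of microRNA hairpins with a reproducible summit turned on the distance and on the strength of the list. With 500 bp in place of 1 kb it fell from 17 hairpins and 15 clusters to 5 and 5, with 5 kb it rose to 54 and 46, and with peaks above the list's median strength it was 6 and 6. For pooled candidates the 110 hairpins became 68 at 500 bp, 219 at 5 kb and 71 with candidates above their median strength. For candidates of both replicates the 77 became 39 at 500 bp, 193 at 5 kb and 49 when the summits had to lie within 150 bp of each other.

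Without 1 replicate, taking the strongest 2464 regions of the other, the hairpins numbered 14 to 15, the clusters 13 in both cases, and the hairpins with a summit at a host's start 49 in both cases against 52. Of the 17 hairpins, 13 stayed without replicate 1, where mir-277, mir-34, mir-1000 and mir-9377 were lost and mir-967 was gained. Without replicate 2, 15 stayed, and mir-4985 and mir-4949 were lost. CACGTG was found at 1 of the 17 peaks within 50 bp and at 3 within 150 bp, and CANNTG at 9. Of the alternatives chosen after seeing the data, counting each host once gave 46 and keeping only members of RefSeq-named primary transcripts gave 10. No paired analysis was possible because the study had 1 group. Candidates beyond the 30000 per list were not seen, and read depth is unknown.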
